A study of Rattus norvegicus with 5 samples.

Results

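Pileups of PARP1 chromatin immunoprecipitation reads were counted in 1 Mb bins along chromosomes 1 to 20 and compared between 2 libraries from cocaine-trained rats and 2 libraries from rats that had received only saline. The bins were chosen by position alone, leaving out X, Y, the mitochondrial sequence and all unplaced or random sequence. They numbered 2570 of the 2854 bins of all listed sequences, and 2568 of them held a mean of at least 200 pileups and entered the tests. All rats were male Sprague Dawley. The cocaine rats were given 15 mg/kg cocaine by intraperitoneal injection on days that alternated with saline during 10 days of training, with 20 min in the matching compartment after each injection. The rats then chose freely between the compartments in a 15 min test, 24 h after training ended, and central amygdala from both sides was frozen directly afterwards. Each library pooled 2 rats. One cocaine library came from animals that strongly preferred the drug-paired side (high preference) and the other from animals that did so weakly (low preference), so any effect of preference adds to the spread within the cocaine group. The saline group had 2 libraries, called saline 1 and saline 2. Values of the 4 libraries are given in the order high preference, low preference, saline 1 and saline 2 throughout. Whole tissue was used, so differences in cell makeup and in binding per cell cannot be told apart. The study's input DNA sample was not analysed here, and the counts are not corrected for input.

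PARP1, poly(ADP-ribose) polymerase 1, is an abundant nuclear enzyme that binds DNA breaks and nucleosomes and builds chains of ADP-ribose on itself, on histones and on other proteins. These chains loosen chromatin and recruit repair factors, and the enzyme also takes part in the control of transcription. The central amygdala is the output nucleus of the amygdala and contributes to emotional and drug-related memory. Conditioned place preference measures such memory by the time an animal chooses to spend where it received the drug.

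The files number every pileup in order along a chromosome but list only those of at least 2 reads. The rise of that number across a bin therefore counts listed and unlisted pileups together. On the autosomes the 4 libraries held 10799668, 11707480, 5467119 and 11634789 numbered pileups, of which 30.1%, 33.5%, 13.96% and 33.1% were listed. Estimated depth counted each unlisted pileup as 1 read and each listed pileup by its height, the reads at its highest point. It was 14859059, 16757814, 6307142 and 16586675 reads. A listed pileup can hold more reads than its height, so these values can be too low. Saline 1 was thus by far the shallowest library. Counts were scaled to equal autosomal totals before any comparison.

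The broad profile was shared by all 4 libraries. The median bin held 4330, 4712, 2189 and 4696 pileups, and after scaling these medians lay between 3965 and 3997. Of the variation of log2 levels over bins and libraries, 98.9% lay between bins and 1.06% between libraries within a bin. The bin at the 95th percentile stood 1.62 to 1.71 times above the bin at the 5th percentile in every library, so the profile itself was shallow.

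No 1 Mb bin passed the test between cocaine and saline libraries. Both groups had n = 2, and limma with Benjamini-Hochberg adjustment over all 2568 bins called 0 bins (0%), with a smallest adjusted p of 0.422. At an unadjusted p under 0.05 there were 52 bins (2.02%), and limma with an intensity trend also called 0. The median absolute difference of a bin was 0.022 on the log2 scale, or 1.54%, and the SD over bins was 0.038. That median was 0.033 without saline 2, 0.055 in listed peaks, 0.058 in summed heights, 0.063 with 100 kb bins and 0.012 with 5 Mb bins. The median standard error of a bin's difference was 0.035, and the 95% interval reached 0.079 to either side in the median bin. In 86.2% of bins this interval lay within a 1.1-fold difference either way. These intervals hold for single bins, borrow spread across bins and rest on 2 libraries a group.

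This result depended on both saline libraries being in the fit. With either saline library left out, limma called bins in both directions. In both fits a lone saline library was assumed to vary like the cocaine pair, which was the closest of the 6 pairs of libraries. Counts of called bins from these fits are therefore not given. The median absolute difference of a bin was 0.030 without saline 1 and 0.033 without saline 2. The remaining saline library lay outside the cocaine pair in 74.4% of bins without saline 1 and in 76.8% without saline 2. With either cocaine library left out, limma called none. The remaining cocaine library then lay outside the saline pair in 49.3% of bins without low preference and in 53.7% without high preference.

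The 4 libraries can be divided 2 against 2 in 3 ways, and the labelled division was the smallest of them. The others crossed the groups, with high preference and saline 1 against low preference and saline 2, or with high preference and saline 2 against low preference and saline 1. The squared differences within a bin add up exactly from these 3 parts, although each library enters all 3. The cocaine against saline part held 26.6% of the within-bin variation, the first crossed division 38.2% and the second 35.2%, where equal parts would be 33.3%. The SDs of the bin differences were 0.038, 0.046 and 0.044 in the same order. If every pileup were an independent count, counting alone would give an SD of 0.025 in each division, and the observed variances were 2.28, 3.28 and 3.02 times that of counting. Overlapping reads merge into 1 pileup, so this counting value is a guide. The labelled division also gave the fewest bins at an unadjusted p under 0.05 in limma, with 52 against 128 and 136. This order did not hold with estimated reads, where the counts were 99 against 92 and 128. Nor did it hold with 500 kb bins and estimated reads, at 231 against 205 and 263. With 100 kb bins it did not hold in listed peaks (814 against 930 and 812) or summed heights (848 against 892 and 814). With 100 kb bins and estimated reads the labelled and first crossed divisions both had 877. With numbered pileups it held at all 4 bin sizes used. With 3 divisions an exact two-sided permutation test of any single bin cannot go below 0.333.

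**Figure D1:**
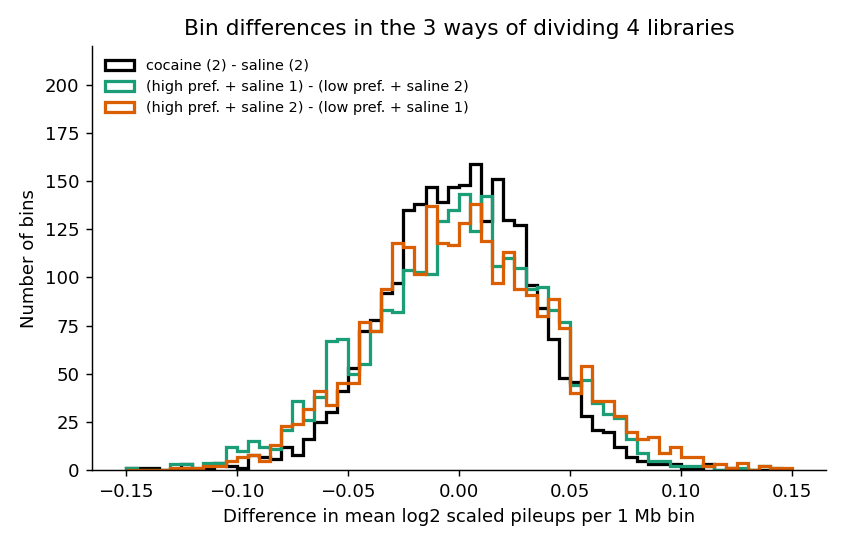
Number of 1 Mb bins (vertical axis) by their difference in mean log2 scaled pileups (horizontal axis, classes of 0.005) for the labelled division (black) and the crossed divisions (green and orange). The black distribution is the narrowest, with an SD of 0.038 against 0.046 and 0.044, and 9, 13 and 9 bins lie beyond the axis limits of 0.15 in the order of the legend.

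Bins in which both cocaine libraries lay on the same side of both saline libraries were fewer than in the crossed divisions. Both cocaine libraries stood higher in 348 bins (13.6%) and lower in 347 bins (13.5%), in all 695 bins or 27.1%. The crossed divisions separated 926 bins (36.1%) and 947 bins (36.9%). The gap between the nearest libraries of the 2 groups exceeded 5% in 13 bins and 10% in 2 bins, against 13 and 19 bins over 5% and 2 bins over 10% in each crossed division. The most frequent arrangement was another: in 842 bins (32.8%) both cocaine libraries lay between the saline libraries. Saline 1 was the highest in 408 of these and saline 2 in 434. Both saline libraries lay between the cocaine libraries in 224 bins (8.72%), and the groups alternated in 807 (31.4%).

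These counts follow the distances between single libraries. The cocaine libraries were the closest pair, with an SD of log2 differences of 0.040 and Pearson's correlation of 0.994 across the 2568 bins, which share the genome's profile. The saline libraries were the farthest pair, with an SD of 0.081 and a correlation of 0.975, and the 4 pairs across groups had SDs of 0.049 to 0.069. A difference over 1.1-fold was seen in 10 bins between the cocaine libraries, in 152 between the saline libraries and in 18 to 59 across groups. Saline 1, with the lowest depth, had a counting SD of 0.039 against saline 2, where the cocaine pair had 0.032. The variance between the saline libraries was 4.21 times that of counting and that between the cocaine libraries 1.56 times.

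Neighbouring bins moved together in every division, and least in the labelled one. Over 2548 pairs of adjacent bins the correlation of their differences was 0.267 for cocaine against saline, 0.371 for the first crossed division and 0.386 for the second. Runs of at least 3 adjacent bins with the libraries apart in the same direction held 80 bins for cocaine against saline, against 195 and 233, and the longest run was 4 bins against 6 and 6. With numbered pileups, wider bins set the labelled division further below the others. Its share of within-bin variation was 31.1% with 100 kb bins, 28.7% with 500 kb bins, 26.6% with 1 Mb bins and 18.9% with 5 Mb bins. With 5 Mb bins, limma gave 6 of 521 bins an unadjusted p under 0.05, against 41 and 57 in the crossed divisions. With estimated reads in place of pileups the labelled share was nearer to equal parts and showed no steady fall, at 31.5%, 32.7%, 31.9% and 28.2% in the same order of bin sizes. With 5 Mb bins and estimated reads, limma gave 17 bins an unadjusted p under 0.05, against 14 and 50. The labelled share was the smallest of the 3 in all 16 combinations of 4 bin sizes and 4 measures. The measures were numbered pileups, listed peaks, summed heights and estimated reads, and the labelled share ranged from 18.9% to 32.7%. At its highest, with 500 kb bins and estimated reads, it stood beside 33.8% and 33.5% in the crossed divisions. The labelled division had the fewest separated bins in 13 of the 16. All 16 come from overlapping reads of the same 4 libraries, so they are not separate checks.

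**Figure D2:**
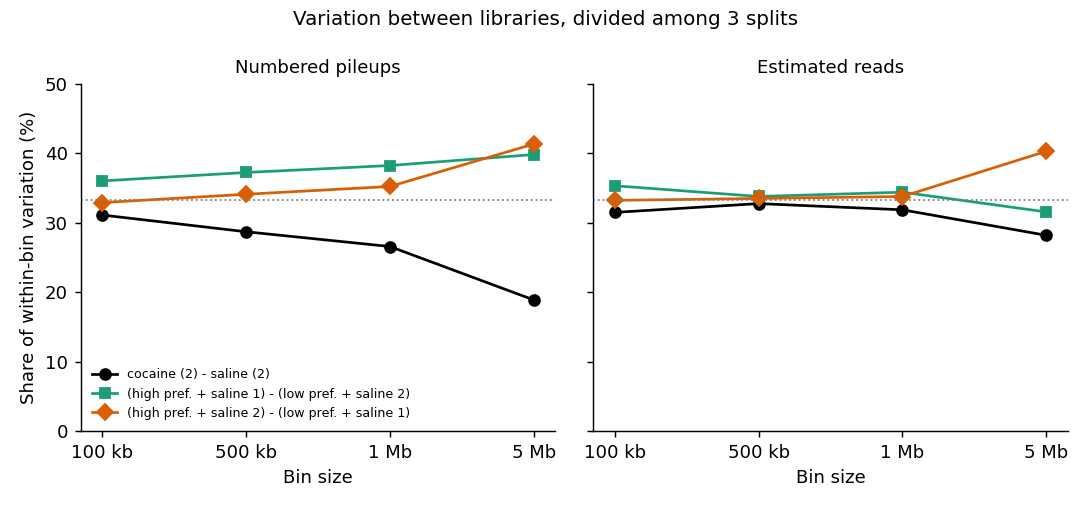
Share of within-bin variation in percent (vertical axis) by bin size for the labelled division (black circles) and the crossed divisions (green squares, orange diamonds), from numbered pileups (left) and estimated reads (right), with a dotted line at the equal share of 33.3%. The black line falls from 31.1% at 100 kb to 18.9% at 5 Mb with pileups, and ends at 28.2% with estimated reads.

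By chromosome the groups differed by at most 0.621%. The median absolute difference in the log2 share of autosomal pileups over the 20 chromosomes was 0.0029 for cocaine against saline, or 0.202%, against 0.0063 and 0.0078 in the crossed divisions. The gap between the saline libraries had a median of 0.014 and that between the cocaine libraries 0.0045. On 19 of 20 chromosomes the gap between the saline libraries exceeded the difference between the groups, and on 13 the gap between the cocaine libraries did. With equal noise, a gap between single libraries varies more than a difference between means of 2 libraries. These counts therefore do not compare like with like. Both cocaine libraries lay on one side of both saline libraries on 2 chromosomes (10%), against 5 (25%) and 13 (65%) in the crossed divisions. The labelled division held the smallest share of within-bin variation on 17 of the 20 chromosomes when each was taken alone. All chromosomes come from the same 4 libraries, so they are not separate checks.

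Chromosomes 11, 5 and 6 had the largest positive differences and chromosomes 13, 2 and 1 the largest negative ones. Chromosome 11 held 3.561%, 3.549%, 3.509% and 3.556% of autosomal pileups, a log2 difference of 0.0089. Saline 2 lay between the cocaine libraries there, and without saline 1 the difference was -0.00068. On chromosome 5 the shares were 6.747%, 6.727%, 6.665% and 6.733%, a difference of 0.0082. Saline 1 was the lowest there too, and without it the difference was 0.00083, against 0.016 without saline 2. Chromosome 6 was separated, with 5.836%, 5.821%, 5.784% and 5.815%, a difference of 0.0071. This was 0.0034 without saline 1 and 0.011 without saline 2. Chromosome 13 was the other separated one, with 4.367%, 4.368%, 4.381% and 4.393%, a difference of -0.0066. Chromosome 2 had 9.746%, 9.748%, 9.668% and 9.893%, with the saline libraries on either side of both cocaine libraries, a difference of -0.0049. Without saline 2 its difference was 0.012. Chromosome 1 had 10.25%, 10.15%, 10.25% and 10.20%, a difference of -0.0038, which was 0.0039 without the low preference library. For chromosomes 6 and 13 the exact two-sided permutation p was 0.333, the smallest that 4 libraries allow, and 1 after Benjamini-Hochberg adjustment over the 20 chromosomes.

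**Figure D3:**
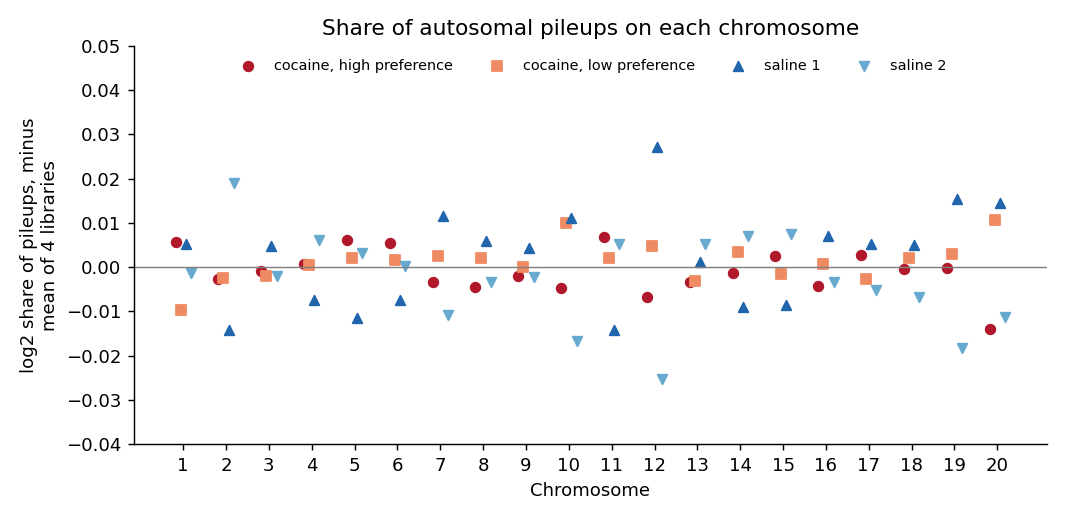
Log2 share of autosomal pileups on each chromosome minus the mean of the 4 libraries (vertical axis) for the cocaine libraries (red circles, orange squares) and the saline libraries (blue triangles). The saline libraries often hold the outer positions, as on chromosome 12, where they lie 0.052 apart, and the groups separate only on chromosomes 6 and 13.

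The saline libraries also moved in opposite directions along the density of the bins. When the 2568 bins were divided into 10 classes of equal size by their mean scaled count, saline 2 stood 0.021 above the 4-library mean on the log2 scale in the sparsest class and 0.037 below it in the densest. Saline 1 stood 0.0050 below in the sparsest and 0.029 above in the densest. The low preference library went from -0.017 to 0.0086 and the high preference library from 0.0012 to -0.00012. Cocaine minus saline thus averaged -0.016 in the sparsest class and 0.0085 in the densest, with 23 bins separated upward and 47 downward in the sparsest and 46 upward and 16 downward in the densest. Spearman's correlation of a library's deviation with the bin's level, across bins that share each library, was -0.448 for saline 2, 0.283 for saline 1, 0.145 for low preference and 0.0092 for high preference. Estimated depth was 16586675 reads in saline 2, 6307142 in saline 1, 16757814 in low preference and 14859059 in high preference. Whether the trend follows depth was not tested. With estimated reads saline 2 again fell, from 0.026 to -0.047, while saline 1 went from 0.0037 to 0.019. The part of this trend in the group difference was not tested beyond the loess setting, which removed it from each library and called 0 bins in limma.

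**Figure D4:**
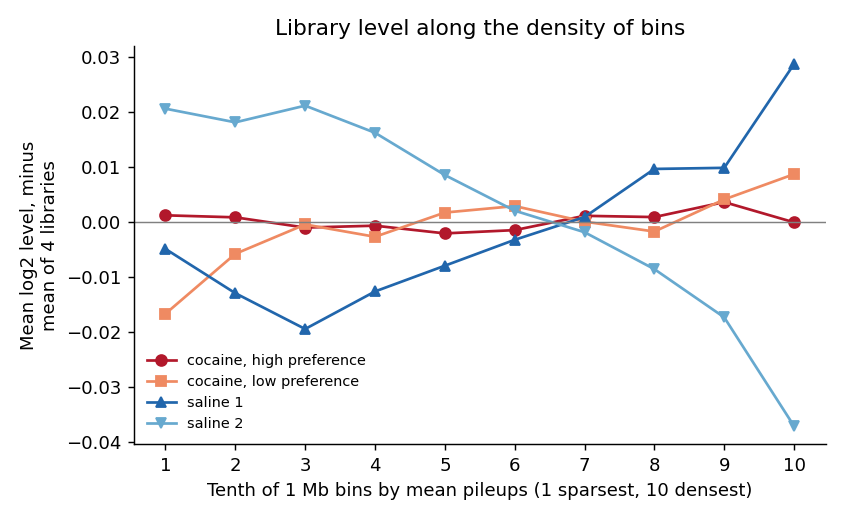
Mean log2 level of each library minus the mean of the 4 libraries (vertical axis) in 10 equal classes of 1 Mb bins from sparsest to densest (horizontal axis). Saline 2 (light blue) falls from 0.021 to -0.037, saline 1 (dark blue) ends at 0.029, and both cocaine libraries (red, orange) stay within 0.017 of the mean.

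The bins with the widest gap between the groups were few and mostly sparse. Since limma called none, the 5 in each direction with the largest gap between the nearest cocaine and saline libraries are described. Their separation is how they were chosen. Among the 5 higher bins, chromosome 1 at 75 to 76 Mb (rn4) led, with 2194, 2290, 943 and 1956 pileups. After scaling these were 2011.7, 1936.9, 1708.0 and 1664.7, so both cocaine libraries stood above both saline libraries, with 1.13-fold between the nearest. The log2 difference was 0.23 ± 0.035 (SE, n = 2 per group), a ratio of 1.17 with a limma adjusted p of 0.422. Listed peaks in this bin numbered 927, 965, 163 and 674, and the difference was larger in summed heights, at 0.57. With estimated reads it was 0.41. This was the 1 bin of 2568 that limma called with that measure, at an adjusted p of 0.00055. It also held the 1 bin called among 5117 bins of 500 kb, at 75 to 75.5 Mb. That smaller bin had 915, 940, 328 and 669 pileups, a difference of 0.49 and a limma adjusted p of 0.0052. The first crossed division likewise gave 1 called bin with estimated reads and 1 with 500 kb bins. The second gave 0 with each.

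Within this bin the difference was spread over several 100 kb windows and largest in one. At 75.3 to 75.4 Mb the scaled pileups were 206.3, 221.6, 52.5 and 91.9, so the saline libraries were lower by more than the spread within either group. Of 9 windows with listed peaks, both cocaine libraries stood above both saline libraries in 5 by pileups and in 7 by summed heights, and below them in 0. Without the window at 75.3 Mb the difference of the bin was 0.13 in pileups and 0.48 in summed heights, with the groups still apart. The next window up, at 75.4 to 75.5 Mb, had 111.9, 121.0, 103.2 and 87.7 scaled pileups, a smaller gap with the groups apart.

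The other higher bins differed less. Chromosome 1 at 44 to 45 Mb had 4343.4, 4342.4, 4028.2 and 4001.8 scaled pileups, a log2 difference of 0.11. The libraries of each group lay close together there, and the groups did not overlap. Chromosome 11 at 70 to 71 Mb had 4748.7, 4769.5, 4222.0 and 4516.7, a difference of 0.12 with saline 1 well below saline 2. Without saline 1 it was 0.075. Chromosome 3 at 171 to 172 Mb, its last bin, had only 315, 358, 134 and 323 unscaled pileups. A last bin can hold less than 1 Mb of sequence, so its low count need not mean low density. The difference in this bin was 0.19, which was 0.11 without saline 1 and 0.28 without saline 2. Chromosome 6 at 91 to 92 Mb had 4194.8, 4217.2, 3992.0 and 4003.5 scaled pileups, a difference of 0.073, and its summed heights differed by -0.0014. For these 4 bins the limma adjusted p was 0.996.

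Of the 5 lower bins, 2 lay close together near the start of chromosome 7. At 4 to 5 Mb the scaled pileups were 382.4, 325.6, 496.3 and 425.5, a log2 difference of -0.38 and a ratio of 0.768. Saline 1 listed only 8 peaks there, and its running number rose by up to 124 between listed autosomal peaks, so its count in a sparse bin shifts with where those peaks fall. The bin between the pair, at 5 to 6 Mb, had the most negative difference of all bins, -0.70, but its groups overlapped, with 200.8, 169.2, 512.6 and 176.2 scaled pileups. At 6 to 7 Mb the values were 2145.6, 2083.2, 2428.9 and 2275.0, a difference of -0.15. Chromosome 12 at 18 to 19 Mb had 1606.4, 1492.8, 1735.2 and 1748.1, a difference of -0.17. Chromosome 1 at 141 to 142 Mb had 1257.1, 1251.8, 1414.6 and 1348.1, a difference of -0.14, and at 49 to 50 Mb it had 3309.1, 3181.9, 3521.0 and 3534.6, a difference of -0.12. In each of the 5 both saline libraries stood above both cocaine libraries, and the limma adjusted p was 0.996. In listed peaks and in summed heights all 5 were lower as well, by -0.14 to -0.31. At 4 to 5 Mb on chromosome 7 the difference was -0.27 without saline 1 and -0.49 without saline 2. The bins were chosen for their gap in these same libraries, so fits that leave 1 out are no separate check.

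**Figure D5:**
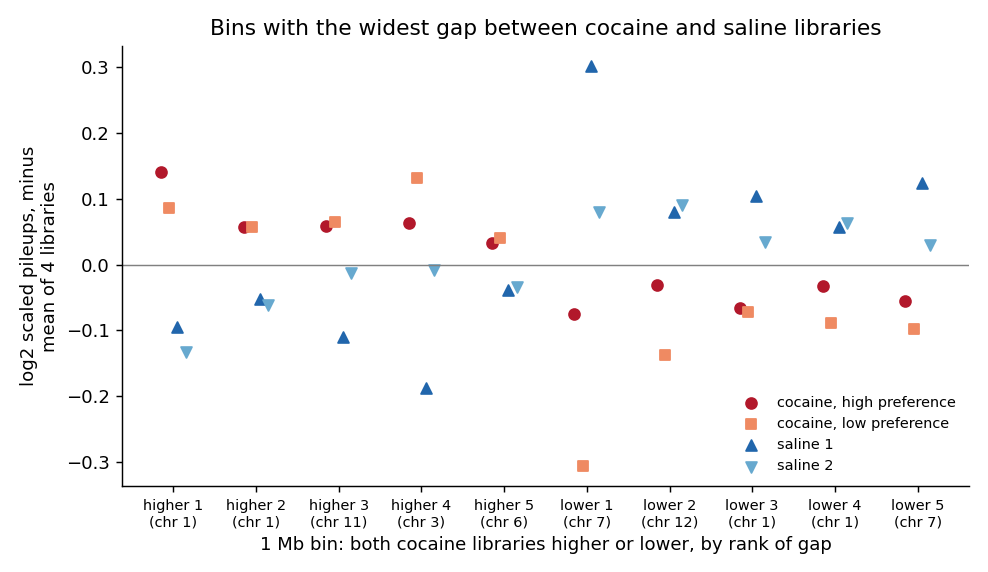
Log2 scaled pileups of each library minus the mean of the 4 libraries (vertical axis) in the 10 bins with the widest gap between groups, ranked within each direction (horizontal axis, with the chromosome in brackets). Both cocaine libraries (red, orange) lie above both saline libraries (blue) in the 5 higher bins and below them in the 5 lower bins, which is how the bins were chosen, and the spread within a group is widest in the first lower bin.

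Differences of similar size occurred where the libraries divided across the groups. The first crossed division gave 1 bin (0.0389%) with a limma adjusted p under the threshold of 0.05, on chromosome 1 at 61 to 62 Mb, with 2251.9, 2867.3, 2327.4 and 3135.4 scaled pileups. The high preference library and saline 1 were low there, by 0.39 on the log2 scale and with a limma adjusted p of 0.00055. The difference was widest in 2 windows of 100 kb. At 61.5 to 61.6 Mb the 4 libraries held 14, 271, 0 and 302 unscaled pileups, and at 61.9 to 62.0 Mb 76, 225, 0 and 252. A count of 0 means that saline 1 listed no peak in the window, since its unlisted pileups are then counted with the next listed peak. The same 2 libraries were also low at 61.6 to 61.7 Mb, with 112.8, 269.0, 163.0 and 254.5 scaled pileups. At 61.8 to 61.9 Mb they were low again, with 138.5, 228.4, 184.7 and 269.8. The window at 61.7 to 61.8 Mb had 388.8, 363.7, 347.8 and 394.9 scaled pileups, with no such gap. The second crossed division gave 2 bins (0.0779%), both with the high preference library and saline 2 high. On chromosome 16 at 27 to 28 Mb the scaled pileups were 750, 576.8, 641.2 and 783.9, a difference of 0.33 with a limma adjusted p of 0.021. On chromosome 1 at 32 to 33 Mb they were 1312.1, 1164.7, 1083.1 and 1354.9, a difference of 0.25 with a limma adjusted p of 0.044.

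The separated bins were also compared with the taller pileups of the same libraries, which come from the same reads. Of the 348 bins with both cocaine libraries higher in numbered pileups, 177 were separated the same way in listed peaks (50.9%) and 8 the opposite way. Over all bins, both cocaine libraries stood higher in listed peaks in 15.7% and lower in 15.3%. Of the 347 lower bins, 166 were separated the same way in listed peaks (47.8%) and 7 the opposite way. Separated bins made up 16.7% to 32.7% of the bins of a chromosome, and no chromosome was free of them.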

How the data were processed

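Anti-PARP1 ChIP-seq peak lists of 4 central amygdala libraries were used, 1 list per library. Bowtie 0.12.7, Picard 1.37 and the rat build rn4 appear in the submitters' processing notes. Neither peak caller nor duplicate handling is stated there. The deposited column 6, unnamed in the header, held whole numbers of at least 2. The authors' values there were taken as signal, meaning the reads in a pileup at its highest point, unscaled for depth. The deposited running number restarts on each chromosome, and column 7 was not used.

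Peaks were assigned to bins by their start. Pileups per bin were the rise of the running number between the last peaks of successive bins. Counts were scaled to equal autosomal totals and tested as log2(count + 1) with limma 3.58.1 in R 4.3.3, on bins with a mean of at least 200 pileups, which left out 2. Adjusted p under 0.05 was called. The pipeline was tested on simulated counts with planted changes and no spread beyond counting. The real libraries spread more than that, so the simulation does not give error rates for them. P-values rest on the spread between these libraries, with spread borrowed across bins. Each library is 1 pool of 2 rats, so differences between pools and between library preparations or depths cannot be told apart in it. Named bins were the 5 per direction with the widest gap between groups, since none was called, and named chromosomes the 3 per direction with the largest difference. The bins, divisions and rules were chosen with earlier results of these data known. No rn4 genome or annotation was used, so genes and sequences in the bins are not given.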

Additional observations from a re-analysis of the deposited data

How the results depend on the processing

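Cocaine against saline gave 0 called bins in limma with another scale factor, a loess trend removed, no filter, a pseudocount of 100, 5 Mb or 100 kb bins, listed peaks, summed heights, an intensity trend, or without the sparsest and densest of 10 classes of bins. It gave 1 with 500 kb bins and 1 with estimated reads, and so did the first crossed division. With 1 library left out the count ranged from 0 to 156, and was 42 without saline 1 and 156 without saline 2. The labelled share of within-bin variation was 28.9% with loess, 26.9% with no filter, 26.2% with a pseudocount of 100, and 25.5% without the outer classes. By bin size it was 31.1% (100 kb), 28.7% (500 kb) and 18.9% (5 Mb), and by measure 30.4% (listed peaks), 31.3% (summed heights) and 31.9% (estimated reads). It could not be computed with 3 libraries. The first crossed division gave 4 bins with an intensity trend, and 0 with listed peaks, with summed heights or without the outer classes. The second gave 1 with no filter, and 0 with another scale factor, 100 kb, 500 kb or 5 Mb bins, listed peaks, summed heights, estimated reads, an intensity trend or without the outer classes. The median chromosome difference was 0.0078 with listed peaks and 0.0093 with summed heights. It ranged from 0.0038 to 0.0089 with 1 library left out, at 0.0059 without saline 1 and 0.0089 without saline 2. Differences that turned direction were -0.0014 on chromosome 6 at 91 to 92 Mb (summed heights), 0.0039 on chromosome 1 (without low preference), -0.00068 on chromosome 11 (without saline 1) and 0.012 on chromosome 2 (without saline 2). With 1 library left out the range was -0.012 to 0.0039 on chromosome 1, -0.00068 to 0.019 on chromosome 11 and -0.022 to 0.012 on chromosome 2. The cause of these changes was not tested. Estimated reads and 100 kb bins were added after seeing the data, as were all alternatives for the crossed divisions except loess, 5 Mb bins and listed peaks. No paired analysis was possible because the labels give the libraries no replicate numbers and tie no cocaine pool to a saline pool. Depth limits saline 1 most, with a median of 2189 pileups per bin.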

Other observations

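The first 2 and the last 2 bins of the 20 autosomes made up 80 bins. The last bin of a chromosome can hold less than 1 Mb of sequence, and bins were not corrected for this. Cocaine minus saline averaged -0.0011 there on the log2 scale with an SD of 0.054, against -0.00086 with an SD of 0.038 in the other 2488 bins. At the ends saline 1 stood 0.0098 below the 4-library mean and saline 2 0.011 above it, and 10 bins were separated upward and 15 downward (31.3%), against 338 upward and 332 downward (26.9%) in the other bins.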
